A study of Mus musculus with 9 samples.

Results

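Laminins are cross-shaped proteins of the basement membrane, the sheet of matrix on which epithelial, mesothelial, endothelial and muscle cells rest. Each is a trimer of 1 alpha, 1 beta and 1 gamma chain. The trimer laminin-332 holds the alpha-3 chain encoded by Lama3 and the beta-3 chain encoded by Lamb3, and anchors epithelia through hemidesmosomes. Lama5 and Lamb2 encode the alpha-5 and beta-2 chains of broader laminins, which pair with the gamma-1 chain. Cells bind these trimers through integrin dimers, in which the alpha-3 or alpha-6 subunit joins beta-1, or alpha-6 joins beta-4, and through Bcam, a membrane glycoprotein of the immunoglobulin family that binds the alpha-5 chain.

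The genes described here are 9 laminin chain and laminin receptor genes, Lama3, Lamb3, Lama5, Lamb2, Itga3, Itga6, Itgb1, Itgb4 and Bcam, out of 48397 gene symbols counted. They were picked by symbol, with differences between the same libraries already known. Lamb3, Itga3 and Lamb2 were among the genes that DESeq2 called lower, and the others are chains and receptors that work with them. Values of the 9 genes between genotypes are therefore a description, and carry no p. All 9 passed the filter on low counts.

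RNA was sequenced from dissected cardiac outflow tracts of C57BL/6J mouse embryos at embryonic day 12.5. There were 5 libraries labelled HO, of genotype Nkx2-5delta-enh/delta-enh, homozygous for a deletion of the enhancer of the cardiac transcription factor gene Nkx2-5 that is named for the anterior second heart field. The 4 libraries labelled WT came from Nkx2-5+/+ littermates. The labels do not say whether a library is 1 embryo or a pool, so p-values measure only how these libraries vary, part of which may be technical. A number in the name of each deposited library, read as a litter by assumption, put HO 1, HO 2, WT 1 and WT 2 together, then HO 3, HO 4, WT 3 and WT 4. HO 5 alone carried another number and was grouped with the second. Genome positions are from GENCODE vM21 on GRCm38 (mm10).

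The libraries held 27707435 to 49094225 reads on named genes. Nkx2-5 was at 16.5, 24.4, 17.8, 11.4 and 17.4 CPM (counts per unit of library size, scaled by TMM factors) in HO 1 to HO 5, against 18.8, 42.0, 45.0 and 39.5 CPM in WT 1 to WT 4. The mean log2 CPM was lower by 1.02 in HO (log2 difference -1.02, exact two-sided permutation p = 0.0238 over 126 labellings), and WT 1 lay inside the HO range. Markers of heart muscle and smooth muscle were present in every library, with Tnnt2 between 1043 and 1786 CPM in HO and between 1199 and 2271 CPM in WT, and Acta2 between 1013 and 1611 CPM in HO and between 1596 and 1901 CPM in WT. HO 2 held 2837 CPM of the 13 listed neuron and Schwann cell markers in sum, against at most 134 CPM in any other library. In bulk tissue, fewer cells of a type and less RNA per cell cannot be told apart.

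The alpha-3 and beta-3 chains of laminin-332 were set against each other first, to see whether trimer partners differed in step. Lamb3, the beta-3 chain (chr1:193207699-193343878, plus strand), was the most different of the 9 genes, at 2.94, 2.27, 1.48, 1.25 and 3.96 CPM in HO 1 to HO 5, against 7.48, 9.86, 10.1 and 6.88 CPM in WT 1 to WT 4. The highest HO library lay below the lowest WT library. The means were 2.38 ± 1.11 CPM in HO (SD, n = 5) and 8.57 ± 1.63 CPM in WT (SD, n = 4). The log2 fold change was -1.84 (SE 0.34), a level 3.59-fold higher in WT. Raw reads of Lamb3 numbered between 35 and 149 per HO library and between 269 and 397 per WT library.

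Lama3, the alpha-3 chain (chr18:12333819-12583013, plus strand), did not separate the genotypes as Lamb3 did. It stood at 3.32, 2.09, 2.45, 0.998 and 2.90 CPM in HO 1 to HO 5, against 3.81, 3.35, 1.95 and 3.49 CPM in WT 1 to WT 4. The groups overlapped, with WT 3 below 4 of the HO libraries, and the log2 fold change of -0.42 was close to its standard error (0.36). It was -0.22 without HO 4, the lowest library. Lama3 was read with between 28 and 165 reads per HO library and between 67 and 144 per WT library.

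**Figure D1:**
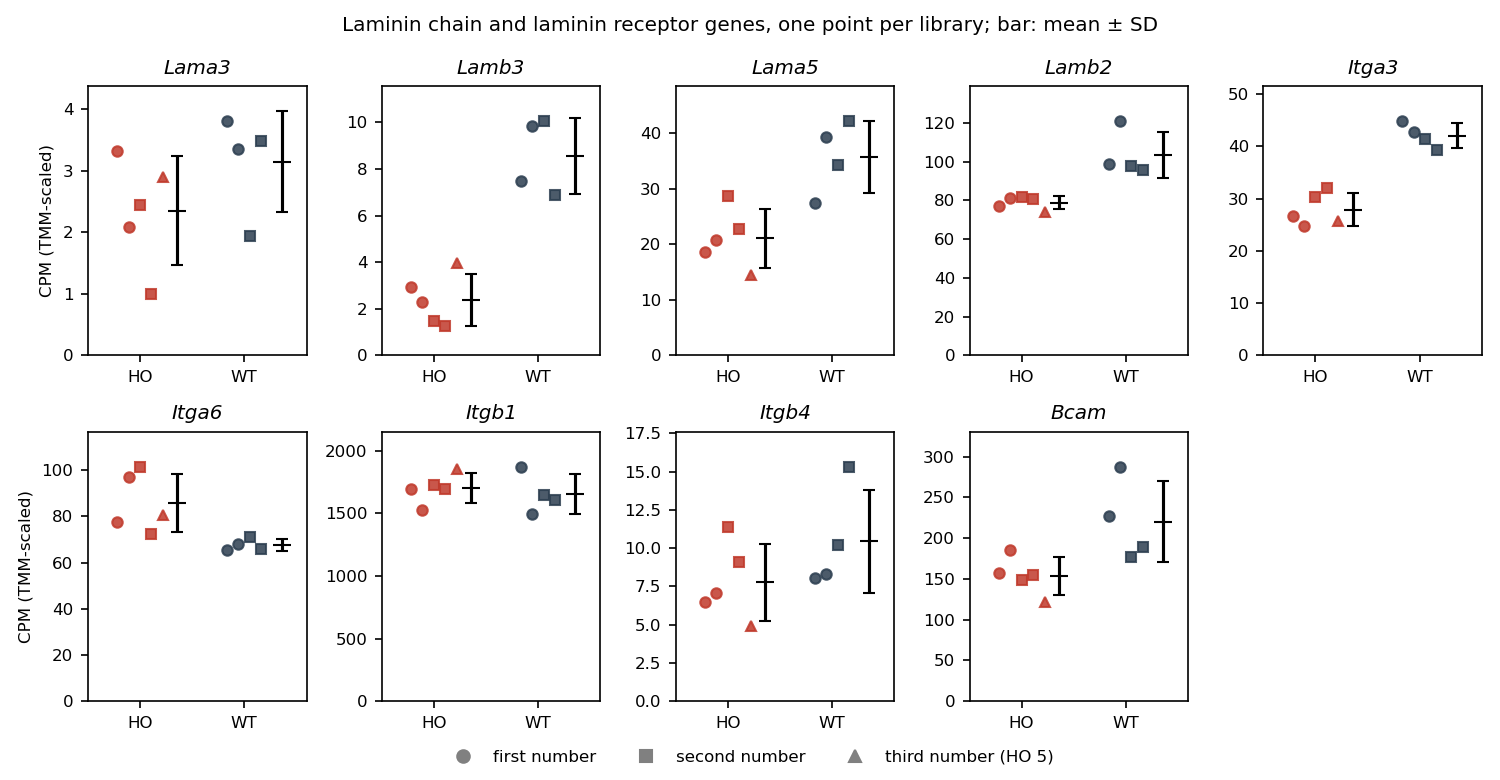
CPM of the 9 genes in each library, HO left and WT right, with the mean and SD beside the points and marker shapes for the number in the library name; each vertical axis starts at 0. Lamb3, Lamb2 and Itga3 have all HO points below all WT points, Itga6 has all HO points above, and Lama3, Lama5, Itgb1, Itgb4 and Bcam overlap.

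Per kilobase of merged exon sequence, the alpha-3 and beta-3 chains differed in level. Lama3 was at 0.219 ± 0.083 CPM per kilobase in HO and 0.293 ± 0.077 in WT, and Lamb3 at 0.360 ± 0.168 in HO and 1.30 ± 0.25 in WT (SD, n = 5 and n = 4). The level of Lamb3 over that of Lama3 was between 0.979 and 2.22 in HO libraries and between 3.19 and 8.39 in WT libraries, which did not overlap. Since Lamb3 was picked with its difference known, nothing is read from the separation of this ratio.

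Promoter sequences at 1 annotated start each are given for the genes with the clearest differences, and for Lama5 as a trimer partner of Lamb2. They are from RefSeq (GRCm38.p6, the mm10 assembly) and run from 250 bases before to 50 bases after that start. Further windows, of Lamb3 at chr1:193301993-193302292 and of Itga3 at chr11:95069149-95069448, were searched but are not printed. The Lamb3 locus given above begins at chr1:193207699, upstream of both Lamb3 windows, and that position was not searched. Capitals mark the GC box GGGCGG on either strand, which transcription factors of the Sp family bind. The Lamb3 window is chr1:193301744-193302043 on the plus strand, that of Itga3 is chr11:95076665-95076964 on the minus strand, that of Lamb2 is chr9:108479612-108479911 on the plus strand and that of Lama5 is chr2:180225810-180226109 on the minus strand.
Lamb3: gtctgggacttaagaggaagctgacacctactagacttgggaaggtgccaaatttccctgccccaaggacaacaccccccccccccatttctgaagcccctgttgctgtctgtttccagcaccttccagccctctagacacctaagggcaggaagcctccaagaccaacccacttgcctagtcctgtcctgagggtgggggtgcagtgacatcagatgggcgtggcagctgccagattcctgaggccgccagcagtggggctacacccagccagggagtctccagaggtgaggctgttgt
Itga3: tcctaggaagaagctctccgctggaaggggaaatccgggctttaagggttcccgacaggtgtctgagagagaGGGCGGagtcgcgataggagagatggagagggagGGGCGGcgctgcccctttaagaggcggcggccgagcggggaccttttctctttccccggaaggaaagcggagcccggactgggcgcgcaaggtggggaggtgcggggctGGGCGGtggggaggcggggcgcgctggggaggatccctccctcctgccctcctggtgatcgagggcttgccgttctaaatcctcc
Lamb2: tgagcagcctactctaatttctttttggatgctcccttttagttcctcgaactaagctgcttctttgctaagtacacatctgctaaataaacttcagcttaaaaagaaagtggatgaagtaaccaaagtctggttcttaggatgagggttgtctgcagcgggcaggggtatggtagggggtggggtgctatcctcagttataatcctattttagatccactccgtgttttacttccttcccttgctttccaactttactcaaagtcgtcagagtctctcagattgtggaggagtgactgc
Lama5: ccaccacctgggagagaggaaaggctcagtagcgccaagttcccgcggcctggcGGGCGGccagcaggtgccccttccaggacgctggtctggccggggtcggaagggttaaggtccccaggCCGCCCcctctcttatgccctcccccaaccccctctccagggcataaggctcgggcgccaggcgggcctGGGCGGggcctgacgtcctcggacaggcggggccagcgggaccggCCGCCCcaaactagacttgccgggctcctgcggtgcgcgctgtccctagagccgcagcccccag
The Itga3 window held 3 GC boxes and the Lama5 window 4, while those of Lamb3 and Lamb2 held 0. Of 32851 promoter windows of this length, 35.7% held at least 1. The element TNAAGTG, the sequence that Nkx2-5 binds, was searched on both strands and was in 0 of the 8 windows of 6 of the 9 genes, and in 11.5% of all windows. The pattern TGANTCA, which takes any base at N and is looser than the AP-1 consensus, was in 1 of these 8 windows. That window was at a second annotated start of Itga3. The match read TGAATCA, which is not the AP-1 consensus, so no AP-1 site is read from it. The loose pattern was in 7.81% of all windows. A missing match says only that these letters are not in these windows.

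The chains of the broader laminins were compared next. Lama5, the alpha-5 chain (chr2:180176373-180225859, minus strand), was at 18.6, 20.7, 28.7, 22.8 and 14.5 CPM in HO 1 to HO 5, against 27.5, 39.3, 34.2 and 42.2 CPM in WT 1 to WT 4. HO 3 passed WT 1 and was the only HO library to reach the WT range. The log2 fold change of Lama5 was -0.77 (SE 0.19), and it was -0.75 within the first library number and -0.80 within the second.

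Lamb2, the beta-2 chain (chr9:108479736-108490530, plus strand), differed less, and its HO values lay close together. It was at 77.0, 81.3, 81.6, 80.6 and 73.9 CPM in HO 1 to HO 5, against 98.6, 121, 97.7 and 95.6 CPM in WT 1 to WT 4. The groups did not overlap, and the log2 fold change was -0.39 (SE 0.09). With each library left out in turn DESeq2 called Lamb2 0 times of 9, Lama5 2 times, and Lamb3 and Itga3 9 times each. Over all genes those fits called between 26 and 65. Nothing is read from these repeats, since the same libraries and contrast guided the choice of the genes.

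The partners with which Lama5 and Lamb2 assemble had smaller log2 fold changes than those chains over all libraries. Lamb1, the beta-1 chain, was at 304.6 ± 58.3 CPM in HO (SD, n = 5) and 339.6 ± 45.9 CPM in WT (SD, n = 4), and its log2 fold change was -0.16 (SE 0.15, edgeR adjusted p = 0.939, and 0.685 to 1.00 over the other edgeR settings). Lamc1, the gamma-1 chain, was at 264.3 ± 35.2 CPM in HO and 306.9 ± 62.8 CPM in WT, a log2 fold change of -0.22 (SE 0.16, edgeR adjusted p = 0.913, and 0.669 to 1.00 over the other edgeR settings). Both overlapped between genotypes. For Lamc1 the overlap rested on WT 1, at 214 CPM. WT 2, WT 3 and WT 4 were at 328, 351 and 336 CPM, above the highest HO library (301 CPM). Without WT 1 the log2 fold change of Lamc1 was -0.35, and that of Lamb2 was -0.41. Within the first library number Lamc1 was at -0.16 (SE 0.25) and Lamb2 at -0.45 (SE 0.17). Within the second, Lamc1 at -0.29 (SE 0.10) and Lamb2 at -0.30 (SE 0.09) were near equal.

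Chain composition was then taken per kilobase within each library. Lama4, the alpha-4 chain of endothelial and muscle laminins, made up 80.9 ± 1.85% of alpha chain level in HO and 74.1 ± 2.26% in WT, and Lama5 9.45 ± 1.72% in HO and 15.0 ± 1.44% in WT. Lama3 had the smallest mean share of the 5 alpha chains in both genotypes, at 1.17 ± 0.56% in HO and 1.45 ± 0.54% in WT. Lamb1 was the leading beta chain in every library. The share of Lamb3 among beta chains was between 0.396% and 1.41% in HO and between 1.91% and 2.80% in WT. The shares of Lama5 and Lamb3 thus did not overlap between genotypes. That of Lama4 did not either, at 78.8% to 82.9% in HO and 72.3% to 77.1% in WT, while Lama4 itself had a log2 fold change of 0.02. A share depends on the other chains beside it. Lamb3 was picked with its difference known, so nothing is read from the separation of its share.

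**Figure D2:**
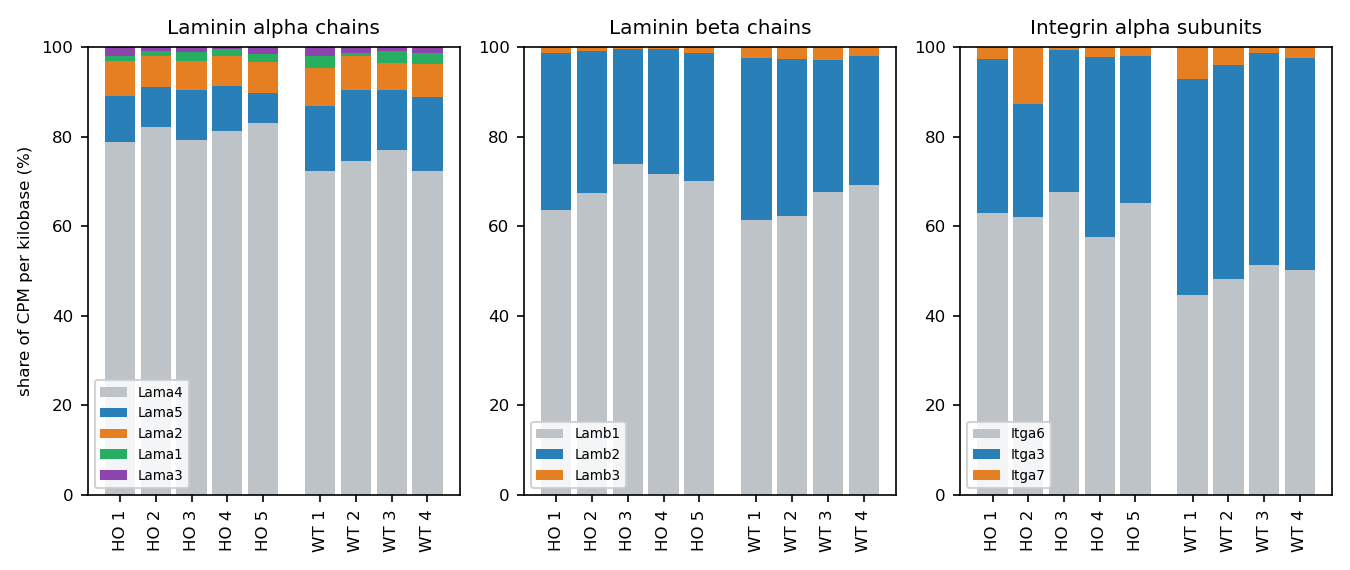
Share of CPM per kilobase (%) taken by each laminin alpha and beta chain and by the laminin-binding integrin alpha subunits, 1 stacked bar per library, HO left of WT. Lama4 and Lamb1 are the largest shares of their panels in every library, and Itga3 holds between 25.1% and 40.3% of the integrin panel in HO libraries and between 47.2% and 48.3% in WT libraries.

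Among the receptors of the 9 genes, the 2 integrin alpha subunits pointed in opposite directions. Itga3, which encodes the alpha-3 subunit (chr11:95044474-95076801, minus strand), was at 26.7, 24.7, 30.2, 32.1 and 25.8 CPM in HO 1 to HO 5, against 44.8, 42.7, 41.4 and 39.2 CPM in WT 1 to WT 4. Itga6, which encodes the alpha-6 subunit (chr2:71745616-71858416, plus strand), was at 77.4, 96.8, 101, 72.3 and 80.6 CPM in HO 1 to HO 5, against 65.4, 68.2, 71.1 and 65.9 CPM in WT 1 to WT 4. Neither gene overlapped between genotypes: every HO library was below every WT library for Itga3 and above every WT library for Itga6.

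The log2 fold change of Itga3 was -0.59 (SE 0.10), at -0.75 within the first library number and -0.46 within the second. That of Itga6 was 0.34 (SE 0.11), with 0.40 and 0.31 within the numbers. Per kilobase, the level of Itga3 over that of Itga6 was 0.545, 0.403, 0.472, 0.701 and 0.505 in HO 1 to HO 5, against 1.08, 0.989, 0.919 and 0.942 in WT 1 to WT 4. On this scale the pair was near equal in level in WT libraries, and Itga6 was the higher in all HO libraries. Since Itga3 was picked with its difference known, nothing is read from the separation of this ratio. The near equality rests on the merged exon lengths, 9.03 kilobases for Itga6 and 5.71 for Itga3. By CPM the WT means were 67.7 for Itga6 and 42.0 for Itga3.

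The beta subunits showed no such separation. Itgb1, the beta-1 subunit shared by many integrins (chr8:128685654-128733200, plus strand), was at 1700.2 ± 119 CPM in HO (SD, n = 5) and 1655 ± 157 CPM in WT (SD, n = 4). The log2 fold change was 0.04 (SE 0.10), and its sign turned in 3 of 29 alternative fits. Itgb4, the beta-4 subunit of hemidesmosomes (chr11:115974709-116008412, plus strand), was at 6.48, 7.05, 11.4, 9.09 and 4.89 CPM in HO 1 to HO 5, against 8.07, 8.29, 10.2 and 15.3 CPM in WT 1 to WT 4. The Itgb4 groups overlapped, at a log2 fold change of -0.43 (SE 0.28), and at -0.18 without WT 4, its highest library.

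Bcam (chr7:19756131-19771016, minus strand) was at 157, 185, 149, 154 and 121 CPM in HO 1 to HO 5, against 227, 287, 176 and 190 CPM in WT 1 to WT 4. HO 2 lay above WT 3, and the other HO libraries lay below all WT libraries. The log2 fold change was -0.52 (SE 0.16), at -0.57 within the first library number and -0.37 within the second.

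**Figure D3:**
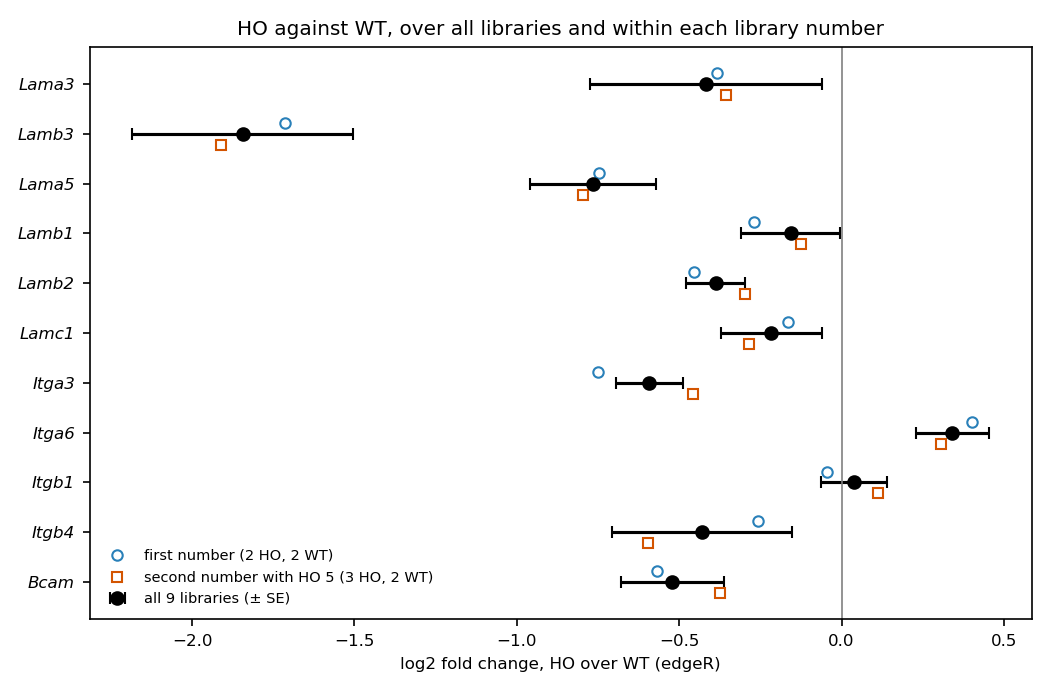
Log2 fold change, HO over WT, of the 9 genes and of the trimer partners Lamb1 and Lamc1, with the standard error over all 9 libraries (black) and the values within the first library number (open circles) and within the second with HO 5 (open squares). Within both numbers Lamb3 lies below -1.7 and Itga6 lies above 0, and only Itgb1 changes side.

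Of the 9 genes, 7 had a log2 fold change below 0 in HO, where 49.4% of all 16522 genes tested did. The median over the 9 was -0.43, and 0.00 over all genes tested. The groups did not overlap in 4 of the 9, with 3 lower in HO and 1 higher, against 1.80% of all genes tested, 0.974% lower and 0.829% higher. DESeq2 called 3 of the 9, and 0.201% of the genes to which it gave an adjusted p. With a replicate block in the fit it called 4 of the 9, Lamb3, Itga3, Lama5 and Bcam, and 0.428% of genes. Nothing is read from these counts, since the same contrast guided the choice of the genes. In level per kilobase, the order in WT ran from Itgb1 (405 ± 38) and Bcam (68.8 ± 15.5) through Lamb2 (17.0 ± 1.95), Itga6 (7.50 ± 0.29), Itga3 (7.36 ± 0.41), Lama5 (3.14 ± 0.57), Itgb4 (1.49 ± 0.48) and Lamb3 (1.30 ± 0.25) to Lama3 (0.293 ± 0.077 CPM per kilobase, SD, n = 4). Itga6 and Itga3, and Itgb4 and Lamb3, were neighbours within their spread.

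Whether the genes differed between library numbers was tested, since that contrast had no part in their choice. Between the second number with HO 5 and the first, with genotype in the fit, edgeR called 1625 of 16522 genes, or 9.84%, 883 higher and 742 lower, and 0 of the 9 genes. At an unadjusted p under 0.05 there was 1 of the 9, Bcam, which was also the 1 of the 9 that DESeq2 called, where DESeq2 called 17.9% of genes. Bcam averaged 158 CPM in libraries of the second number with HO 5 and 214 CPM in those of the first, a log2 difference of -0.38 (SE 0.11, edgeR adjusted p = 0.0570, DESeq2 adjusted p = 0.0118, and 0.0118 to 0.166 over the alternative fits). Itgb4 had the next smallest p of the 9, at a log2 difference of 0.47 (SE 0.24, edgeR adjusted p = 0.252, and 0.0567 to 0.524 over the alternative fits). Of the trimer partners, Lamb1 had a log2 difference of 0.34 (SE 0.11, edgeR adjusted p = 0.0895, DESeq2 adjusted p = 0.0352). Lamc1 had one of 0.29 (SE 0.13, edgeR adjusted p = 0.189, DESeq2 adjusted p = 0.145).

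Whether the difference between HO and WT itself varied with the number was tested as an interaction. edgeR called 10 of 16522 genes, or 0.0605%, and 0 of the 9 genes, with 0 of the 9 at an unadjusted p under 0.05 and 0 called by DESeq2, which called 0.885% of genes. The interactions of the 9 genes lay between -0.32 (Itgb4) and 0.31 (Itga3) on the log2 scale, with edgeR adjusted p between 0.813 and 0.996. With 2 WT libraries per number, differences of this size were not resolved.

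Trimer and receptor partners were also followed from library to library within a genotype, as the deviation of log2 CPM from the genotype mean, which leaves out the difference between HO and WT. Of 11 partner pairs over the 9 libraries, 0 passed an exact two-sided permutation test within genotypes after Benjamini-Hochberg adjustment over the pairs. At an unadjusted p under 0.05 there were 0 by Pearson's r and 1 by Spearman's rho. The chains of the broader laminins had the highest coefficients. Lama5 and Lamb1 had r = 0.70 (exact p = 0.0580, adjusted p = 0.319) and rho = 0.75 (exact p = 0.0403, adjusted p = 0.346), and r = 0.84 without the 2 libraries farthest from the median of Lama5. Lama5 and Lamc1 had r = 0.66 (exact p = 0.0549, adjusted p = 0.319) and rho = 0.68 (exact p = 0.0628, adjusted p = 0.346), and r = 0.86 without those 2 libraries.

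The pairs that hold Lamb3 missed the threshold as well. Lama3 and Lamb3 had r = 0.51 (exact p = 0.263, adjusted p = 0.579) and rho = 0.48 (exact p = 0.290, adjusted p = 0.501), and r = 0.46 without the 2 libraries farthest from the median of Lama3. Without HO 4 alone, r of Lama3 and Lamb3 was 0.04. Lamb3 and Itga3, both lower in HO, had r = -0.69 (exact p = 0.136, adjusted p = 0.50) and rho = -0.62 (exact p = 0.204, adjusted p = 0.501), and r = -0.43 without the 2 libraries farthest from the median of Lamb3. With the means of library number removed as well, Lama5 and Lamb1 stood at r = 0.85, Lama3 and Lamb3 at 0.47 and Lamb3 and Itga3 at -0.74. The highest r was that of Lamb2 and Lamc1, at 0.96, which was 0.26 with genotype means alone removed, and Lama5 and Bcam stood at 0.87, against 0.25 with genotype means alone removed. That fit allows 48 orders and a smallest exact p of 0.0208, and 3 pairs had an unadjusted p under 0.05 and 0 passed adjustment (smallest adjusted p = 0.115).

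**Figure D4:**
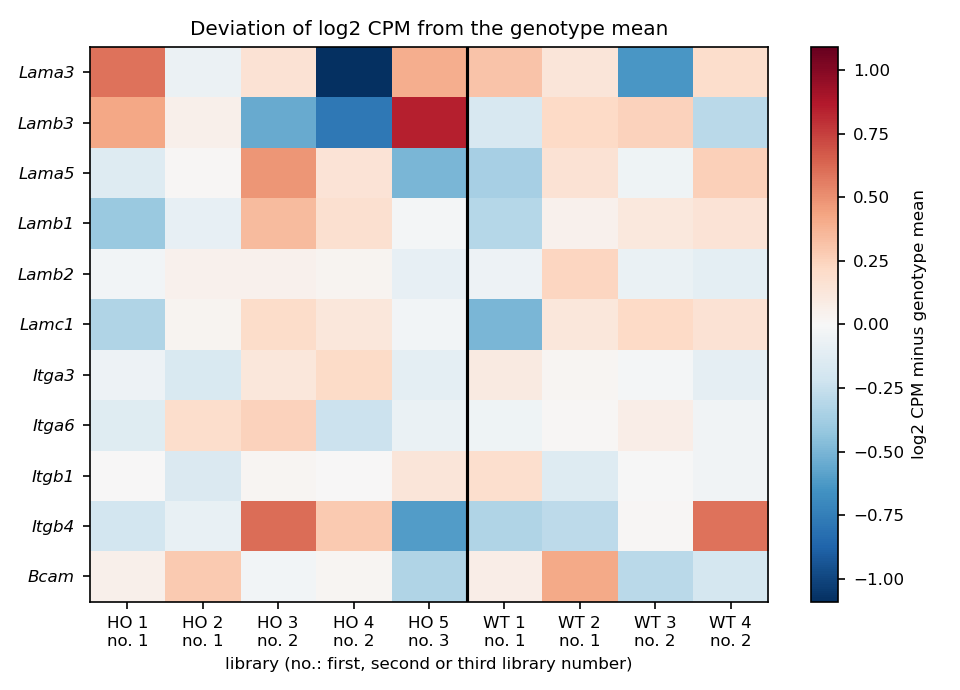
Deviation of log2 CPM from the genotype mean (colour scale) for the 9 genes and the trimer partners Lamb1 and Lamc1 (rows) in each library (columns, HO left of the line). Lama5, Lamb1 and Lamc1 deviate in the same direction in HO 1, HO 3, HO 4, HO 5, WT 1, WT 2 and WT 4, while among HO libraries Lamb3 is highest in HO 5 (0.85) and lowest in HO 4 (-0.78).

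Across all genes tested, those whose deviations were most like Lamb3 over the 9 libraries were Gm10822 (r = 0.97), Lrrc40 (0.96) and Hprt (0.95). For Lama3 they were Gm27030 (0.99), Gm14705 (0.97) and Gm13154 (0.97), and for Itga3 Spon1 (0.98), Prdm6 (0.98) and Adra2b (0.97). These are the top of 16521 coefficients per gene over 9 libraries that share depth and library number, and are given without a test.

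Other genes of the laminin network were taken from 7 lists of 67 genes, of which 61 passed the filter on low counts. edgeR called 0 of the 61, with 7 lower and 0 higher at an unadjusted p under 0.05, where 5.27% of all genes tested had such a p. DESeq2 called 1, Itgb3, which was lower, and which it called 2 times of 9 with a library left out. Of the 61, 47 had a log2 fold change below 0, with a median of -0.13 against 0.00 over all genes tested. Within the first library number the median was -0.24, with 47 of 61 below 0, and within the second with HO 5 it was -0.05, with 33 of 60 below 0.

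Basement membrane partners of laminin were the list furthest below 0, with 16 of 17 genes below 0 and a median of -0.36. Of the 17, 5 had an unadjusted p under 0.05, all lower, and edgeR and DESeq2 called 0. Over all 16522 genes tested, 49.4% were below 0, and 486 genes were lower at an unadjusted p under 0.05. The list was chosen with earlier results of these data known. Col4a6, a chain of the type IV collagen network, was at 31.8 ± 4.63 CPM in HO (SD, n = 5) and 45.0 ± 6.38 CPM in WT (SD, n = 4), and its log2 fold change was -0.50 (SE 0.14). Tinagl1, a matricellular protein of basement membranes, was at 77.3 ± 12.1 CPM in HO and 103 ± 8.52 CPM in WT (log2 fold change -0.41, SE 0.13). Col4a5, which assembles with Col4a6, had a log2 fold change of -0.31 (SE 0.11). Their edgeR adjusted p was 0.896 each. Within the first library number the median of the list was -0.39, with 15 of 17 below 0, and within the second with HO 5 it was -0.06, with 9 of 16 below 0. Without WT 1 it was -0.22. With the library number as a factor and HO 5 on its own, 12 of 17 were below 0, at a median of -0.29. Without WT 2, 13 of 17 were, at a median of -0.30.

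Of the other laminin chains tested, 5 of 6 were below 0, with a median of -0.18 and 0 at an unadjusted p under 0.05. Lama1, the alpha-1 chain of early embryonic laminin, was at -0.47 (SE 0.45). Lama2, the alpha-2 chain of muscle laminin, was at -0.19 (SE 0.11), and Lama4 at 0.02 (SE 0.13). The other laminin receptors had a median of 0.10, with 3 of 5 above 0 and 0 at an unadjusted p under 0.05. Their median was 0.35 within the first library number and -0.13 within the second with HO 5, -0.07 with the replicate block and -0.05 without WT 1. Among them dystroglycan, encoded by Dag1, was at -0.11 (SE 0.10), Itga1 at 0.10 (SE 0.18) and Itga2 at 0.32 (SE 0.47).

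Of the other integrin subunits, 9 of 14 tested were below 0, with a median of -0.06 and 2 at an unadjusted p under 0.05. The median was -0.11 within the first library number and 0.17 within the second with HO 5, where 4 of 14 were below 0. Itgb3, the beta-3 subunit of vitronectin and fibrinogen receptors, was at 23.9 ± 2.83 CPM in HO (SD, n = 5) and 33.6 ± 2.98 CPM in WT (SD, n = 4), and its log2 fold change was -0.49 (SE 0.12, edgeR adjusted p = 0.815, DESeq2 adjusted p = 0.0462). Itga2b, its partner on platelets, was at -1.13 (SE 0.47), but at -2.54 within the first library number and 0.21 within the second. Itga11 was at -0.57 (SE 0.31).

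The hemidesmosome and tetraspanin genes had a median of -0.27, with Plec at -0.27 (SE 0.15), Dst at -0.20 (SE 0.15) and Krt14 at -0.62 (SE 0.32). The integrin adaptors had a median of -0.18, with Fermt3 at -0.53 (SE 0.29), Pxn at -0.31 (SE 0.16) and Lims1 at 0.18 (SE 0.11). The adaptor median was -0.36 within the first library number and 0.04 within the second with HO 5, with Pxn at -0.55 and 0.03 and Fermt3 at -0.69 and -0.13. Proteases that cut laminin chains had a median of -0.12, with Bmp1 at -0.13 (SE 0.11), Mmp14 at -0.19 (SE 0.13) and Mmp2 at -0.11 (SE 0.16). The protease median was -0.25 within the first library number and -0.02 within the second with HO 5, with Mmp2 at -0.39 and 0.01. In these 3 lists 0 genes were called by either tool and 0 had an unadjusted p under 0.05.

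**Figure D5:**
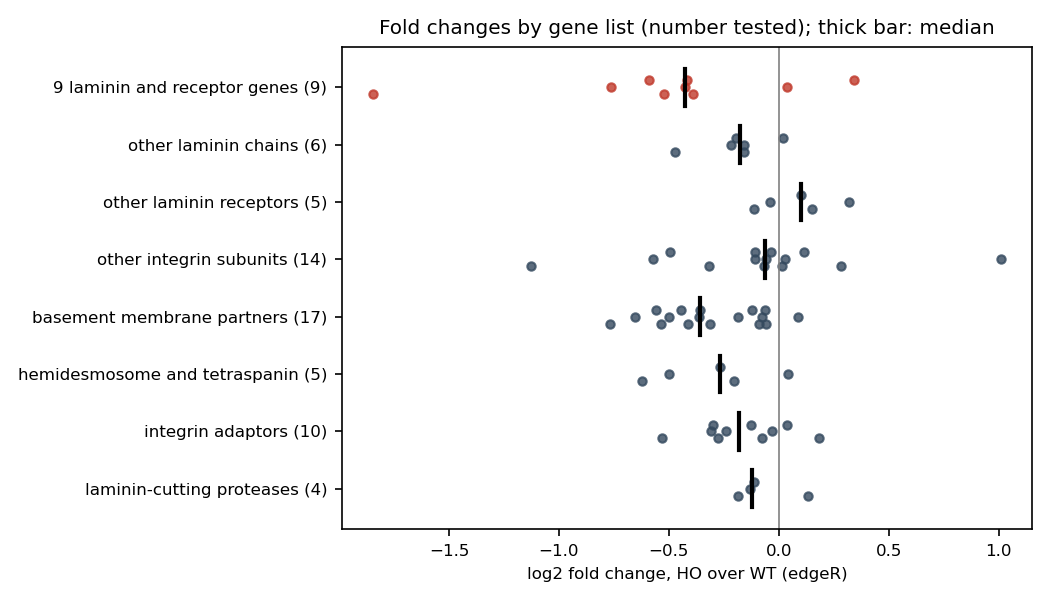
Log2 fold change, HO over WT, of the 9 genes (red) and of the genes of 7 other lists (dark), 1 point per gene tested, with the median as a bar. The basement membrane partners have 16 of 17 points below 0, and the other laminin receptors have 3 of 5 above 0.

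Marker lists of other cell types are given beside these values, as sums without a test. The summed level of 22 epithelial markers was between 189 and 306 CPM in HO and between 347 and 430 CPM in WT, which did not overlap. Of these markers 16 passed the filter, with 12 below 0. DESeq2 called 2, where it called 0.201% of all genes with an adjusted p. Krt19 is also on the list of epicardium and mesothelium. The defining epithelial markers were low, made up a small part of that sum and overlapped between genotypes. Epcam was between 0.302 and 3.64 CPM in HO and between 0.0581 and 1.95 CPM in WT. Cdh1 was between 0.685 and 8.72 CPM in HO and between 0.412 and 4.06 CPM in WT. Epcam had 137 counts in HO 5, between 9 and 20 in the other HO libraries and between 2 and 70 in WT libraries. Trp63 was at most 0.306 CPM in HO and 0.473 CPM in WT. Nkx2-1 had 16 counts in HO 5 (0.425 CPM), and 0 counts in HO 1 to HO 4 and in all 4 WT libraries. In WT libraries 3 counts would be at most 0.0874 CPM. The 12 markers of epicardium and mesothelium, with 10 below 0 and 1 called by DESeq2, summed to between 693 and 1147 CPM in HO and between 953 and 1565 CPM in WT, which overlapped, with Upk3b between 137 and 328 CPM in HO and between 302 and 476 CPM in WT. The 10 endothelial markers, 4 of them below 0, summed to between 859 and 1061 CPM in HO and between 857 and 1042 CPM in WT. The 8 smooth muscle markers, 8 of them below 0, summed to between 2490.2 and 3778 CPM in HO and between 3789 and 4164 CPM in WT, which did not overlap. Heart muscle markers were below 0 in 9 of 9 (between 12123 and 16464 CPM in HO and between 8543 and 20175 CPM in WT), macrophage markers in 8 of 8 (between 95.6 and 239 CPM in HO and between 63.2 and 341 CPM in WT) and red cell markers in 7 of 10 (between 1877 and 5689 CPM in HO and between 1815 and 10299 CPM in WT). The sums of these 3 lists overlapped. The part of these cell types in the values of Lamb3, Lamb2, Itga3, Itga6, Lama5 and Bcam was not tested.

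Without HO 2, the library with the neuronal markers, the log2 fold changes were -1.82 for Lamb3, -0.76 for Lama5, -0.40 for Lamb2, -0.55 for Itga3, 0.30 for Itga6 and -0.59 for Bcam. The basement membrane list without it had 16 of 17 genes below 0 and a median of -0.33. Without HO 5, the only library with counts of Nkx2-1, the log2 fold changes were -2.10 for Lamb3, -0.66 for Lama5 and -0.37 for Lamb2. They were -0.56 for Itga3, 0.36 for Itga6 and -0.45 for Bcam. The basement membrane list without HO 5 had 14 of 17 genes below 0 and a median of -0.33.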

How the data were processed

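The measurement was RNA-seq of dissected outflow tracts, with RNeasy extraction and SMART-Seq library kits, per the labels' protocols. What the authors deposited is 1 table of whole-number read counts by gene symbol for each of 9 libraries. The submitters' processing notes list mm10, STAR 2.5.0c, HTSeq 0.6.0, Picard and DESeq2; the annotation and the strand setting were not given in the sources used here. Rows with no gene name (20.6% to 23.5% of reads) were dropped. No exon of the 9 genes was shared with a gene holding more than 1 read.

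The main test of the counts was the quasi-likelihood test of edgeR 4.0.16 (R 4.3.3; robust, TMM, filterByExpr with a minimum count of 10, two-sided, Benjamini-Hochberg adjusted p under 0.05 over all genes tested), which also gave fold changes and standard errors. DESeq2 1.42.0 was an alternative, with other scalings, filters, blocks and libraries left out. Log2 CPM used a prior count of 2. Merged exon lengths come from GENCODE vM21. They count every annotated exon, used or not, so the level of a gene per kilobase against that of another depends on them. The procedure was tested on simulated counts.

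The 9 genes, the lists and the partner pairs were chosen with earlier results of these data known. The genes named are the 9, their trimer partners, in each list the 3 with the smallest p, and for Lamb3, Lama3 and Itga3 the 3 most alike over libraries; Lama4, whose share is given, was chosen after its values were seen. 1 gene of the lists and pairs is not reported here. Deviations of libraries with the same replicate number in their titles correlated at 0.242, 0.137, 0.227 and 0.176 for numbers 1 to 4. A fit with this replicate block is quoted by name where it alters a call or the sign of a list median. It is also quoted for the edgeR calls over all genes. HO 5 has no WT partner in this block and adds nothing to the estimate.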

Additional observations from a re-analysis of the deposited data

Results flagged for a closer look

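Of 24 groups checked (12 genes in HO and in WT), 2 held a library that stood apart from the rest of its group by Dixon's criterion, which chance meets in about 1 of 20 groups. WT 2 was the highest WT library for Lamb2, at 121 CPM, and WT 1 the lowest WT library for Lamc1, at 214 CPM. Without WT 2 the log2 fold change of Lamb2 was -0.30, and without WT 1 that of Lamc1 was -0.35.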

How the results depend on the processing

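Lamb3, Lama3, Lama5, Lamb2, Itga3, Itga6, Itgb4 and Bcam kept their sign in all 29 alternative fits between genotypes, and Itgb1 in 26. Lamb3 ranged from -2.17 to -1.68, Lama5 from -0.90 to -0.65 and Itga6 from 0.28 to 0.40. Over all genes edgeR called 0, and 1 without WT 3 (0 to 1 when a library was left out), while DESeq2 called 38 (26 to 65 when a library was left out, with 65 without HO 2 and 62 without HO 4) and 69 with the replicate block; edgeR with the replicate block called 0. In the 7 lists edgeR called 0 and DESeq2 1 (0 to 1 when a library was left out). For the library number DESeq2 called 3075 genes against 1625 by edgeR (488 to 1621 when a library was left out, with 488, 589, 704 and 958 without WT 3, WT 4, HO 3 and WT 1), and of the 9 genes DESeq2, edgeR without a filter on low counts and edgeR without HO 1 each called 1, Bcam (0 to 1 when a library was left out). For the interaction DESeq2 called 157 and edgeR without a filter 69, against 10 (0 to 265 when a library was left out, 265 without HO 1). The log2 difference of Nkx2-5 lay between -1.31 and -0.87 when a library was left out. Its exact p was 0.0571 without HO 1, HO 3, HO 4 or HO 5. The cause was not tested. Lama3 and Lamb3 had the fewest reads, down to 28 and 35 in a library.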
